A study of Oncorhynchus mykiss with 6 samples.

Results

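The genes described here act at and around the membrane of the endoplasmic reticulum (ER) of rainbow trout (Oncorhynchus mykiss) liver: VCP, vimp, kdelr2 and rcn1. They were chosen by symbol, ignoring case, and these 4 symbols took 6 of the 1213 entries of the deposited table. VCP and vimp had 1 entry each, and kdelr2 and rcn1 had 2 each. Both kdelr2 entries carried the same footprint count and FPKM in every library, and so did both rcn1 entries, so the 6 entries hold 4 distinct sets of values. Each pair is described once, since it cannot be told whether its entries share reads or are 1 gene listed again. No entry of another KDEL receptor or reticulocalbin symbol was among those listed.

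Ribosome footprints, the stretches of mRNA that a translating ribosome shields from nuclease, were sequenced from 6 liver libraries. The heat stress group (3 libraries) was held at 24 °C for 8 h, and the control group (3 libraries) at 18 °C by the sample source labels or 20 °C by the treatment protocol. The labels speak of liver placed at these temperatures and name nuclear RNA as the molecule. They give no strain or age and do not tell whether replicates were different fish. The p-values below therefore measure the spread between libraries, which may be technical. The table lists entries that already differed in the authors' own comparison (largest FDR 0.0494, smallest absolute log2 fold change 1.003), and 76.2% of them were higher in heat stress.

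Proteins that fail to fold in the ER are drawn back across its membrane, tagged with ubiquitin and destroyed by the proteasome, a route called ER-associated degradation (ERAD). VCP, also called p97, is the ATPase that pulls such proteins out of the membrane. The product of vimp, also known as selenoprotein S, is a membrane protein that in mammals binds VCP and ties it to the derlin channel proteins. Chaperones that leave the ER with secreted cargo are caught in the Golgi by KDEL receptors, of which kdelr2 encodes one, and are carried back in COPI-coated vesicles. Reticulocalbin 1, encoded by rcn1, is a calcium-binding protein of the ER lumen and a member of the CREC family. The liver secretes most plasma proteins and so depends heavily on this machinery.

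The first question was how many footprints each gene gave in warmed and control liver. All 4 genes were higher in heat stress, by about 3 times for VCP, vimp and kdelr2 and by more for rcn1, and in each gene every heat stress library lay above every control library. Of all listed entries, 75.5% showed heat stress libraries wholly above control libraries, so this separation is what most of the table shows. Of the 1176 entries tested, 70.8% passed the test described next as higher in heat stress. VCP, vimp and kdelr2 were among them. So was rcn1, but it reached the filter on low counts only through its heat stress libraries, so its pass is no support. Levels are given as FPKM, footprints scaled by transcript length and by library depth, which permits comparison between genes of unequal length.

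VCP was the most abundant of the genes. Its level was 197.97, 256.72 and 210.49 FPKM in the heat stress libraries, against 57.27, 81.02 and 67 FPKM in the control libraries. The lowest heat stress library was 2.44 times the highest control library. The mean was 222 ± 30.9 FPKM in heat stress and 68.4 ± 11.9 FPKM in control (SD, n = 3 each). These levels rest on 7281 footprints in heat stress and 2816 in control, and the ratio of depth-scaled footprints was 3.20 with a 95% interval of 3.06 to 3.34 (exact binomial). Such intervals cover counting error only. The log2 fold change was 1.70 ± 0.22 (SE; limma-voom adjusted p = 0.00163), and the call held without each library in turn.

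The vimp gene, whose product anchors VCP at the ER membrane in mammals, gave 83.94, 131.43 and 93.84 FPKM in heat stress. Its control libraries gave 27.69, 35.31 and 35.55 FPKM. Heat stress replicate 2 was the highest library, as it was for VCP, and control replicate 1 the lowest. Means were 103 ± 25.1 FPKM in heat stress and 32.9 ± 4.47 FPKM in control (SD, n = 3 each), from 826 and 335 footprints. The log2 fold change was 1.63 ± 0.24 (SE; limma-voom adjusted p = 0.0041), and this call too held without each library in turn.

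The KDEL receptor gene kdelr2 gave 26.29, 29.05 and 13.94 FPKM in heat stress, against 7.14, 8.55 and 7.19 FPKM in control. Heat stress replicate 3 stood well below the other heat stress libraries, though still 1.63 times above the highest control library. The coefficient of variation was 34.8% in heat stress and 10.5% in control. With 201 footprints in heat stress and 87 in control, the depth-scaled ratio was 2.86 with a 95% interval of 2.21 to 3.72 (exact binomial). The log2 fold change was 1.48 ± 0.35 (SE), close to the threshold (limma-voom adjusted p = 0.0457). Without heat stress replicate 3 it was 1.85 (limma-voom adjusted p = 0.0132), and without any other single library the call was lost (limma-voom adjusted p between 0.117 and 0.255). The background moved too: the share of tested entries that rose was 71.5% when heat stress replicate 1 was left out, 49.7% for replicate 2 and 46.9% for replicate 3 of that group, and 39.7%, 50.8% and 47.7% when control replicates 1, 2 and 3 were left out.

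Reticulocalbin 1 was scarce. The rcn1 level was 3.55, 3.96 and 4.69 FPKM in heat stress and 0.85, 0.74 and 0.65 FPKM in control, so the groups lay 4.18 times apart at their nearest points. Its counts were small, at 18, 12 and 27 footprints in the heat stress libraries and 6, 4 and 3 in the control libraries. The depth-scaled ratio was 5.43, with a 95% interval of 2.93 to 10.8 (exact binomial) whose lower end lies inside the range of ratios of the other genes. The log2 fold change was 2.33 ± 0.42 (SE; limma-voom adjusted p = 0.0116). The call was lost without heat stress replicate 3 (limma-voom adjusted p = 0.0664) or control replicate 3 (limma-voom adjusted p = 0.0556). Since rcn1 reached the filter on low counts only through its heat stress libraries, the call is no support where it was kept.

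**Figure D1:**
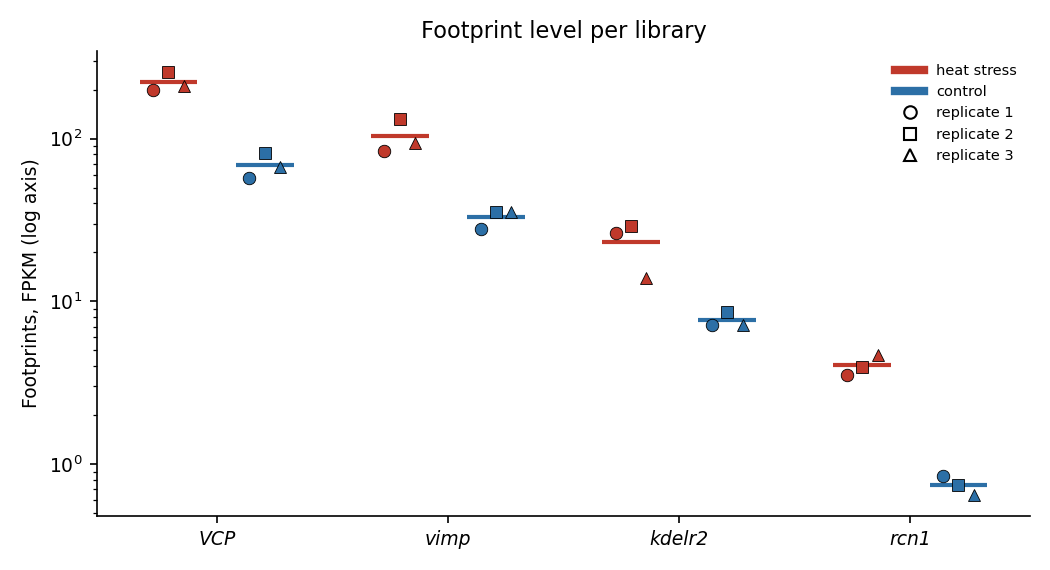
Footprint level of VCP, vimp, kdelr2 and rcn1 in each library, in FPKM on a log axis; points are libraries, shaped by replicate, and bars are means of 3 libraries. Heat stress points lie above control points for each gene, and kdelr2 in heat stress replicate 3, at 13.94 FPKM, is the point nearest to its control group.

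In the authors' deposited table the log2 fold change was 1.70 for VCP (FDR = 5.23e-19), 1.65 for vimp (FDR = 5.11e-08), 1.60 for kdelr2 (FDR = 0.0138) and 2.45 for rcn1 (FDR = 0.0435). The fold changes of mean FPKM were 3.24, 3.14, 3.03 and 5.45 in the same order of genes. Among all 1176 tested entries the median log2 fold change was 1.67. By size of log2 fold change, 51.8% of tested entries lay below VCP, 47.8% below vimp, 42.2% below kdelr2 and 72.0% below rcn1. Thus 3 of the genes sat near the middle of the listed entries.

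The calls of all 4 genes, and the direction of kdelr2, depend on the library scale. Library sizes were recovered from the ratio of count to FPKM; under trimmed-mean (TMM) factors over the listed entries, the log2 fold change was 0.13 for VCP, 0.06 for vimp, -0.10 for kdelr2 and 0.77 for rcn1. The kdelr2 value thus turned below 0, and none of the 4 genes passed the test, where 8.33% of tested entries rose (8.59% under median-of-ratios factors). TMM also moved the median of all tested entries to 0.10, which it does by treating most of a table of selected genes as unchanged. Each gene's distance from the median of all entries changed little. That follows from the arithmetic, since a new library size shifts all entries of a library alike, and is no sign of robustness. With library sizes taken from the summed listed footprints, the values were 0.78, 0.70, 0.54 and 1.41 for VCP, vimp, kdelr2 and rcn1, with a median of 0.74 over all tested entries, no call among the 4 genes and 19.0% of entries risen. Under the other settings tried the share that rose was 65.2% for log2(FPKM + 0.1), 70.7% for log2(FPKM + 1) and for identical entries counted once, 69.7% without a filter, 70.5% above 10 FPKM and 76.4% with a replicate block.

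**Figure D2:**
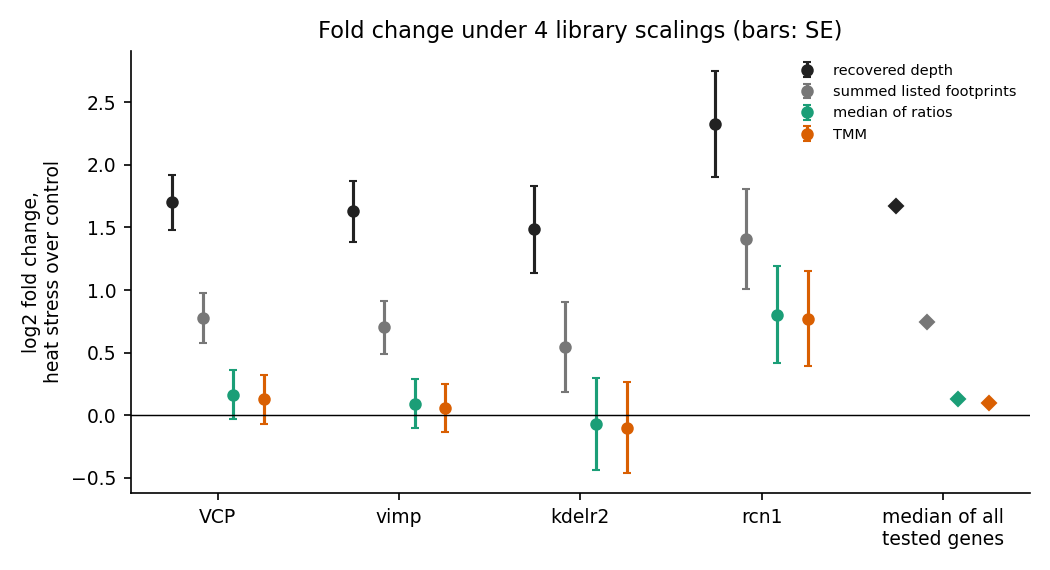
Log2 fold change of heat stress over control for each gene under 4 ways of setting library size, with SE bars; diamonds are the median of all tested entries. Genes and median move down together from recovered depth (VCP 1.70, median 1.67) to TMM (VCP 0.13, median 0.10), and kdelr2 falls below 0 under TMM and median of ratios. Among the 4 genes rcn1 stays highest, an order that scaling can hardly change because it shifts all entries of a library alike.

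Ratios between genes inside a library do not depend on its scale, so the genes were next compared with each other. VCP stood at 1.95 to 2.36 times vimp in heat stress and 1.88 to 2.29 times vimp in control, and the mean log2 ratio was 1.12 ± 0.14 in heat stress and 1.05 ± 0.14 in control (SD, n = 3 each). The difference of 0.07 was smaller than the spread between replicates (exact permutation test, two-sided, p = 0.6; adjusted p = 0.9 over 6 pairs). A test on 3 libraries a group does not show that the ratio was equal. The order of levels was VCP, vimp, kdelr2 and rcn1 in all 6 libraries, and no neighbours in that order overlapped within a group.

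No ratio to rcn1, which rests on 6, 4 and 3 control footprints, passed a test. VCP was 44.9 to 64.8 times rcn1 in heat stress and 67.4 to 109 times rcn1 in control. The log2 ratio of VCP over rcn1 was lower in heat stress by 0.74, and that of kdelr2 over rcn1 by 0.91, without overlap between groups (exact permutation test, two-sided, p = 0.1 each, the smallest that 3 against 3 libraries allow; adjusted p = 0.3). The share of all listed entries that were lower relative to rcn1 without overlap was not counted. Since 72.0% of tested entries had a smaller log2 fold change than rcn1, a lower ratio to it is what most of the table would show. The kdelr2 difference was -0.47 without heat stress replicate 3. The log2 ratio of vimp over rcn1 differed by -0.81 but overlapped (exact permutation test p = 0.2; adjusted p = 0.4). Ratios of VCP and of vimp over kdelr2 differed by 0.17 and 0.10, within the spread of heat stress libraries (SD 0.53 and 0.54; exact permutation test p = 0.9 and 0.8, adjusted p = 0.9). Both changed sign, to -0.13 and -0.18, without heat stress replicate 3.

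BiP, encoded by hspa5, is the main Hsp70 chaperone of the ER lumen and carries a KDEL-type retrieval signal. Its more abundant entry averaged 5219 ± 844 FPKM in heat stress and 362 ± 28.9 FPKM in control (SD, n = 3 each), with a log2 fold change of 3.84 ± 0.21 (SE; limma-voom adjusted p = 6.69e-06). Set against it, each of the 4 genes was lower in heat stress. VCP was 4.52%, 4.23% and 4.04% of the BiP level in heat stress, against 15.3%, 21.3% and 20.4% in control. For vimp the share was 1.80% to 2.17% in heat stress and 7.38% to 10.8% in control.

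The receptor kdelr2 gave 0.600%, 0.479% and 0.268% of the BiP level in heat stress, against 1.90%, 2.24% and 2.19% in control. Again heat stress replicate 3 was lowest, and the mean log2 ratio was lower in heat stress by 2.31. The rcn1 share was 0.0653% to 0.0900% in heat stress and 0.194% to 0.226% in control. The log2 ratio to hspa5 differed by -2.14 for VCP, -2.21 for vimp and -1.40 for rcn1, and groups did not overlap in any of the 4 (exact permutation test, two-sided, p = 0.1 each, the smallest possible; adjusted p = 0.1 over 4 genes). Of the 1211 other listed entries, 81.6% were likewise lower relative to hspa5 without overlap, so this is what most of the table shows. Leaving out single libraries kept these differences between -2.56 and -1.27. A lower share compares each gene with BiP in the same library, and the level of each gene itself was higher in heat stress under recovered depth.

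**Figure D3:**
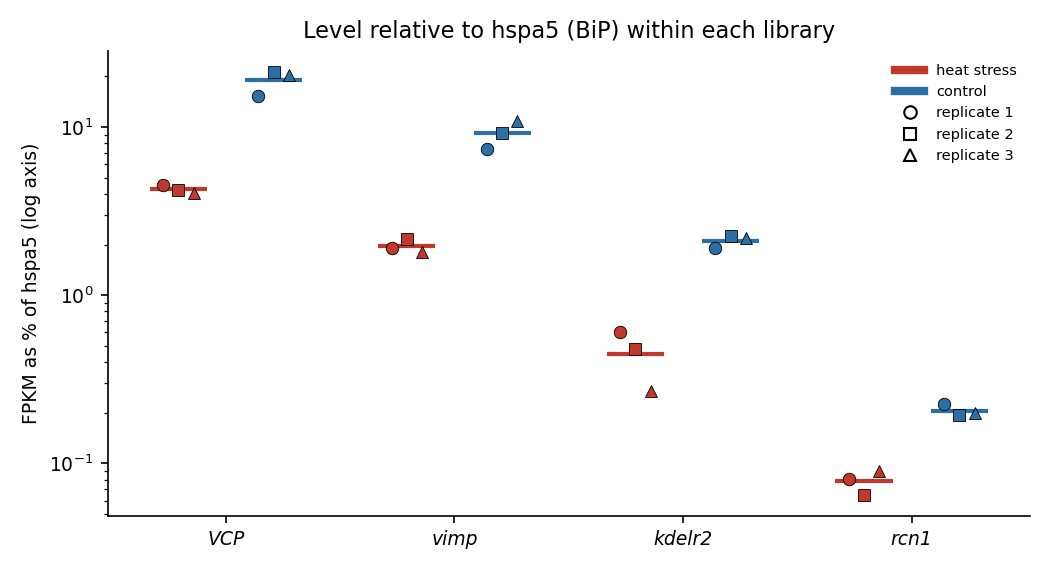
Level of each gene as a percentage of the hspa5 (BiP) level in the same library, on a log axis; points are libraries, shaped by replicate, and bars are means of 3 libraries. Heat stress points lie below control points for each gene, with VCP at 4.04% to 4.52% in heat stress and 15.3% to 21.3% in control.

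Other ERAD genes were then counted, from a list of 53 symbols. Of these, 11 symbols with 13 entries were listed, all 13 were higher in heat stress, and 12 rose by limma-voom, where 70.8% of all tested entries rose. Their median log2 fold change was 1.90, against 1.67 over all tested entries. With single libraries left out, 9 to 13 of the entries rose, where 39.7% to 71.5% of all tested entries did. The call held each time for 9 of the 13. The share of all tested entries that held each time was not counted, so this count is no sign of robustness. Under TMM 3 of the 13 rose, where 8.33% of all tested entries did, and 4 were below 0, with a median of 0.32. Over all tested entries the TMM median was 0.10 and the lower quartile -0.51, so many of them were below 0 too. Their exact share was not counted, here or for the lists that follow. The lectin gene os9, whose product hands misfolded glycoproteins to the ubiquitin ligase, averaged 275 ± 13.5 FPKM in heat stress and 87.6 ± 19.9 FPKM in control. SEL1L, the scaffold of the Hrd1 ligase, averaged 147 ± 18.8 FPKM in heat stress and 28.1 ± 2.50 FPKM in control (SD, n = 3 each). Of both Herpud1 entries, which encode a stress-induced membrane partner of Hrd1, one rose with a log2 fold change of 2.996 ± 0.25 and the other with 1.14 ± 0.24 (SE). The second of these calls was lost when some single libraries were left out.

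Ranked with these 13 entries by level, VCP had rank 2 and vimp rank 4 of 15 in heat stress, and ranks 2 and 3 in control. By log2 fold change VCP ranked 9 and vimp 11 of 15, so most of the 13 ERAD entries had larger estimates than either. Differences between these entries were not tested, and some were small beside their SE. ERLEC1, for example, had 1.78 ± 0.25 against 1.70 ± 0.22 for VCP (SE). Some genes of the machinery that VCP works with were named after their values were seen, and differences between them were not tested either. The VCP adaptor gene Nploc4 averaged 13.7 ± 3.25 FPKM in heat stress and 6.44 ± 0.90 FPKM in control. It did not pass (log2 fold change 1.08 ± 0.26 SE, limma-voom adjusted p = 0.0549). Another VCP-binding membrane protein gene, ubxn4, rose with a log2 fold change of 1.90, the derlin gene derl2 with 2.26 and the Hrd1 ligase gene syvn1 with 1.48. Under TMM syvn1 and Nploc4 were below 0 and none of these 4 passed.

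The annotation column places VCP and vimp, but not kdelr2 or rcn1, in the KEGG pathway of protein processing in the ER. In all, 66 entries had a pathway cell that opens with it, all 66 were higher in heat stress (76.2% of all listed entries were) and 65 rose by limma-voom (70.8% of all tested entries did), with a median log2 fold change of 1.94. Under TMM 18 rose, against a background of 8.33%, and 18 were below 0. VCP ranked 44 and vimp 47 of 66 by log2 fold change, and 11 and 19 by mean level.

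For retrieval and transport between ER and Golgi, where kdelr2 works, 25 of 59 symbols were listed, with 36 entries. All 36 were higher in heat stress and 34 rose by limma-voom, where 70.8% of all tested entries rose. Their median log2 fold change was 1.47, below the 1.67 over all tested entries and close to the 1.48 of kdelr2. Among the 34 were a COPZ1 entry (control footprints 7, 2 and 4) and an ARF4 entry (1, 4 and 0). Like rcn1, these entries reached the filter on low counts only through their heat stress libraries, so their passes are no support. Under TMM none of the 36 passed in either direction, where 8.33% of all tested entries rose. Under the same scaling 21 were below 0, where the median of all tested entries was 0.10 and their lower quartile -0.51. The COPI coat genes Copb2 and copb1 averaged 41.5 ± 6.84 and 38.6 ± 3.35 FPKM in heat stress, against 15.3 ± 1.78 and 13.8 ± 2.28 FPKM in control (SD, n = 3 each). MIA3, which helps load bulky cargo at ER exit sites, rose with a log2 fold change of 1.41 ± 0.21 (SE). For USO1, a vesicle tether, the entry with most footprints rose with 1.03 ± 0.24 and a further entry with 1.84 ± 0.34 (SE). Neither USO1 call held in every fit that left out a single library. The count of 34 dropped to 20 when heat stress replicate 3 was left out (background 46.9%) and to 21 for heat stress replicate 2 (49.7%). It dropped to 16 when control replicate 1 was left out (39.7%) and to 19 for control replicate 3 (47.7%).

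A list of 26 further symbols joined the CREC genes, the family of rcn1, with genes outside that family, most grouped as luminal calcium binding. Of these symbols 11 were listed, with 18 entries. The CREC genes among them were calua, with log2 fold changes of 2.83 and 4.54 for its 2 entries, and calub, with 2.02. All 18 were higher in heat stress and 17 rose by limma-voom, against a background of 70.8%, with a median log2 fold change of 1.99. Among the 17 was a scarce entry written Calr (control footprints 11, 4 and 8). Without its heat stress libraries it would not have reached the filter on low counts, so its pass is no support. Under TMM 2 of the 18 rose, against 8.33% of all tested entries, and 5 were below 0. The calreticulin entry CALR, a lectin chaperone, was the most abundant, at 1339 ± 144 FPKM in heat stress and 400 ± 42.9 FPKM in control (SD, n = 3 each). The entries calr3a, canx (calnexin) and calr rose with log2 fold changes of 1.59, 1.16 and 1.70. A list of 35 symbols for translocation into the ER found 8 entries, of which 7 rose (background 70.8%), with a median of 1.44. An entry written sec61a, at 47.5 FPKM in heat stress and 14.7 FPKM in control, was not in that list and is not counted. Under TMM 6 of the 8 were below 0 and none passed, where 8.33% of all tested entries rose. In this group ssr1 and Ssr4, subunits of the translocon-associated complex, rose with log2 fold changes of 1.43 and 1.33, SRP72 of the signal recognition particle with 1.99 and its receptor gene Srpra with 1.497.

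**Figure D4:**
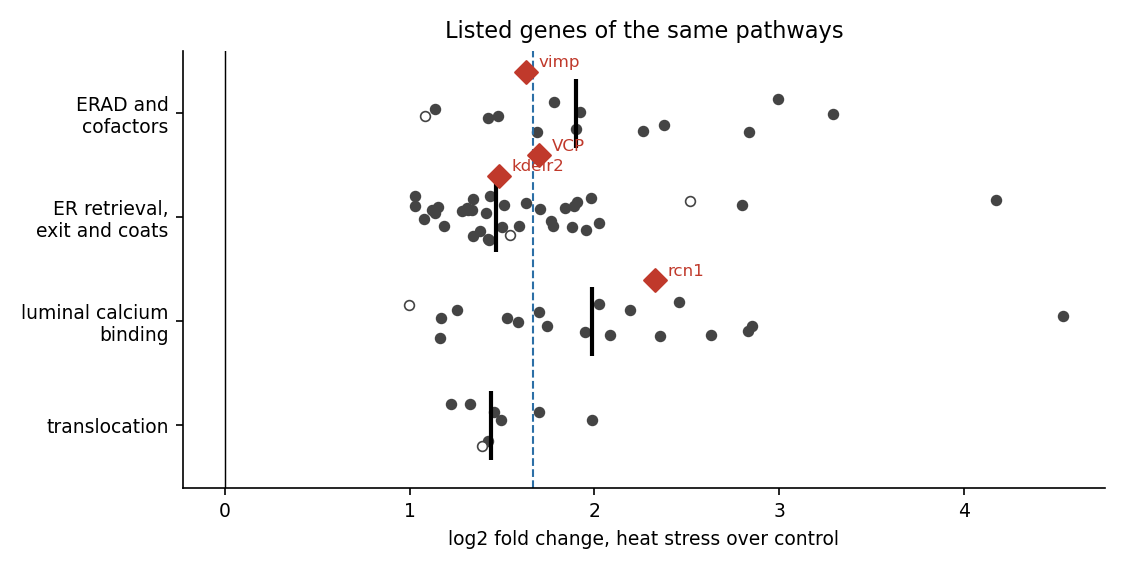
Log2 fold change of heat stress over control (recovered depth) for listed genes of 4 ER pathways; filled points passed the limma-voom test, open points did not, black bars are list medians, red diamonds are VCP, vimp, kdelr2 and rcn1, and the dashed line is the median of all tested entries at 1.67. VCP and vimp lie left of the ERAD median of 1.90, kdelr2 lies close to its list's median of 1.47 and rcn1 lies right of its own. Under TMM, kdelr2 is below 0.

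Entries with the most similar pattern over the 6 libraries were found among those with at least 10 FPKM on average, by the root mean square difference of centred log2 levels. For VCP the nearest of 572 candidates were the chaperonin subunit gene CCT2 (0.118), vimp (0.121) and API5 (0.128), against a median distance of 0.433. For vimp they were sec61a, of the protein-conducting channel of the ER membrane (0.106), the endosomal GTPase gene Rab5a (0.118) and VCP (0.121). VCP and vimp were thus each among the nearest of the other. For kdelr2 they were TMEM33 (0.176), the splicing factor gene srsf1b (0.178) and the cargo receptor gene surf4 (0.204). For rcn1 they were KRT222 (0.0706), the disulfide isomerase gene PDIA4 (0.0852) and SEL1L (0.0964). The rcn1 distances are imprecise, since its control levels of 0.65 to 0.85 FPKM rest on 6, 4 and 3 footprints. The 0.1 added to each FPKM before taking logs also weighs on levels so low. The distance reflects fold size and library spread together, over 6 libraries that all genes share.

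Footprints in a bulk sample reflect mRNA amount, translation and cell makeup, and fewer cells of a type cannot be told apart from less RNA per cell. Of 15 hepatocyte marker symbols 5 were listed, with 7 entries (2 higher in heat stress, 5 lower), among them alb1 and apoa-i-1, and their summed level was 11091 to 17874 FPKM in heat stress and 31398 to 32750 FPKM in control. Of 7 symbols on the biliary list only krt18 was listed, which alone does not identify biliary cells. It was higher in heat stress, at 136 to 171 FPKM against 52.4 to 58.5 FPKM in control, as were 76.2% of all listed entries. Of 10 stellate cell and fibroblast symbols only the collagen gene col1a1b was listed. It was lower, at 26.9 to 29.99 FPKM in heat stress against 57.4 to 70.4 FPKM in control. No red blood cell, leukocyte or endothelial marker was among the listed entries. The part of these shifts in the results above was not tested. Recovered depth was 41.4% to 82.0% of that of control replicate 1 in heat stress and 65.5% and 76.4% in the other control libraries, and the listed entries held 438701 to 863769 footprints per heat stress library and 362308 to 503370 per control library.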

How the data were processed

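The authors deposited 1 fixed-width table that holds, per library, footprint counts and FPKM, and per gene the group mean FPKM, the log2 fold change, its p-value and FDR. Per the submitters' processing notes, Bowtie2 and edgeR were among the tools, without role or version. The genome build, its annotation and the read counter were not given in the sources used here. Cells of 8 characters cut the identifiers. None of the 4 symbols matched the RefSeq table of USDA_OmykA_1.1, so no coordinates or sequences are printed. The unit check could not read the count columns, so the planned quasi-likelihood count test was not run. The count columns as deposited were used for limma-voom and for the binomial intervals.

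Relative depth was the median over 94 entries (at least 200 footprints and 10 FPKM) of count over FPKM. Entries were fitted by limma-voom (limma 3.58.1 in R 4.3.3) with these depths as library sizes, where they reached 10 scaled footprints in 3 libraries and a total of 15. Adjustment was by Benjamini-Hochberg over about 29300 genes, the number tested by the authors as estimated from their p, rank and FDR, at a threshold of 0.05. The script was also run on simulated counts with as many rises as falls and no prior selection of entries. That setting differs from this table, so the run is no check of the calls given here. Within-library ratios had exact permutation tests. Other computing used Python 3.11.15 with pandas 2.3.3, scipy 1.17.1, numpy 2.4.6 and, for plots, matplotlib 3.10.9.

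The genes and lists were chosen with earlier results of these data known. Named by rule were all entries of the 4 symbols, hspa5, the 4 entries of each list with most footprints, and the 3 nearest patterns per gene. Cell type markers came from lists of symbols. Outside that rule, further listed genes were named with their values known. They were ERLEC1, Nploc4, ubxn4, derl2, syvn1, calua, calub, sdf2l1, ube2j1 and MANF, a further USO1 entry, and the scarce entries of COPZ1, ARF4 and Calr. No replicates looked like copies: the chi-square of their counts was 13.8 to 33.1 per degree of freedom.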

Additional observations from a re-analysis of the deposited data

How the results depend on the processing

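The library scale decided the calls of all 4 genes. Under median-of-ratios factors the log2 fold change was 0.16 for VCP, 0.0931 for vimp, -0.0694 for kdelr2 and 0.80 for rcn1; under TMM it was 0.13, 0.0597, -0.0997 and 0.77; with summed listed footprints it was 0.78, 0.70, 0.54 and 1.41, and no gene passed. Among entries with at least 10 FPKM in 3 libraries, kdelr2 had 1.48 but lost its call (limma-voom adjusted p = 0.0727) and rcn1 was not tested. The control levels of kdelr2, at 7.14, 8.55 and 7.19 FPKM, lie below that limit. It was in this fit only through its heat stress libraries, so its value there is no support. Leaving out single libraries gave 1.58 to 1.83 for VCP, 1.45 to 1.77 for vimp, 1.31 to 1.85 for kdelr2 and 2.21 to 2.45 for rcn1. The log2 ratio differences ranged from -0.00023 to 0.15 for VCP over vimp, -0.13 to 0.37 for VCP over kdelr2 and -0.18 to 0.36 for vimp over kdelr2; over rcn1 they ranged from -0.96 to -0.60 for VCP, -1.03 to -0.65 for vimp and -1.13 to -0.47 for kdelr2. Entries that rose under TMM and under median of ratios numbered 3 and 3 of 13 for ERAD, and 0 and 0 of 36 for retrieval. They numbered 2 and 3 of 18 for calcium binding, and 0 and 0 of 8 for translocation. Of all tested entries, 8.33% rose under TMM and 8.59% under median of ratios. Leaving out single libraries gave 9 to 13 for ERAD, 16 to 35 for retrieval, 15 to 18 for calcium binding and 5 to 7 for translocation. The share of all tested entries that rose then ran from 39.7% to 71.5%. Replicate numbers showed no sign of pairing libraries (correlations of deviations -0.05, -0.02 and 0.01). With 3 libraries a group this cannot exclude a pairing. With the replicate number as a block, log2 fold changes were 1.70, 1.63, 1.59 and 2.32 and no call changed for the 4 genes; 899 entries in place of 833 were higher. Counting identical entries once (added after seeing the data), no filter, and log2 of FPKM plus 1 or 0.1 changed no call for the 4 genes. With no filter kdelr2 stood at an adjusted p of 0.04997 (limma-voom). In these fits and the block fit, apart from the one with no filter, rcn1 reached the filter only through its heat stress libraries. Its unchanged calls there are no support. Over all alternatives the adjusted p ran from 0.000423 to 1 for VCP, 0.000463 to 1 for vimp, 0.00537 to 1 for kdelr2 and 0.00171 to 1 for rcn1. The planned quasi-likelihood count test was not run, since the unit check could not read the count columns. Depth limits rcn1 most, with 13 control footprints in all. The cause of the changes was not tested.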

Other observations

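Among luminal and ERAD genes outside the 4 described, several had larger log2 fold changes than VCP or vimp. Entries of calua, sdf2l1 and ube2j1 and the entry written Herpud1 also passed under TMM, where 8.33% of all tested entries rose. The calumenin gene calua, a CREC relative of rcn1, had 2 entries, with 142 ± 13.8 FPKM in heat stress and 6.24 ± 2.76 FPKM in control for one, and 347 ± 60.1 FPKM in heat stress and 48.1 ± 2.42 FPKM in control for the other (SD, n = 3 each). Their log2 fold changes were 4.54 ± 0.32 (SE; limma-voom adjusted p = 4.33e-05) and 2.83 ± 0.21 (SE; limma-voom adjusted p = 5.84e-05), and 2.95 and 1.26 under TMM. The co-chaperone gene sdf2l1 averaged 76.8 ± 12.0 FPKM in heat stress and 7.79 ± 0.70 FPKM in control, and its log2 fold change was 3.29, or 1.72 under TMM. The ER ubiquitin-conjugating enzyme gene ube2j1 averaged 61.3 ± 12.7 FPKM in heat stress and 8.31 ± 0.24 FPKM in control, and its log2 fold change was 2.84, or 1.27 under TMM. The secreted ER stress factor gene MANF had 2 entries, whose log2 fold changes were 2.85 and 2.63; neither passed under TMM. Apart from Herpud1, these genes were named after their values were seen.

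Entries with the same symbol did not always change by the same amount. The entry written Herpud1 had 81.0 ± 20.3 FPKM in heat stress and 9.88 ± 0.85 FPKM in control, and the entry herpud1 had 44.6 ± 10.9 FPKM in heat stress and 19.8 ± 1.85 FPKM in control (SD, n = 3 each), so the entry that was lower in control was the higher in heat stress. The difference between these entries was not tested.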
